A study of Mus musculus with 2 samples.

Results

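The muscle-associated miRNAs examined in tumor exosomes were miR-486a-5p, miR-486b-5p, miR-133a-3p, miR-133b-3p, miR-1a-3p and miR-206-3p, which are 6 of the 1915 mature miRNAs listed for each library. They were picked by name, and the set was chosen by reads of these same libraries, in which some of them had stood out between the conditions. Their change between the conditions is therefore given as a description, with no test. The study sequenced small RNA from exosome-like vesicles of CT26 cells, an established colon carcinoma line of the Balb/c mouse, with 1 library from parental cells and 1 library from sphere-derived cancer stem cells (SDCSCs). Parental cells grew in complete DMEM, and their vesicles were collected in complete DMEM whose serum had been depleted of exosomes. SDCSCs were spheres of the same line, expanded for 2 weeks in DMEM/F12 without serum, with N2 supplements, 10 ng/ml bFGF and 10 ng/ml EGF. No replicate was sequenced, and the cell state changed together with the serum, so a contribution of the cells and one of the medium cannot be told apart.

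miR-1 and miR-133 are made from shared transcripts in heart and skeletal muscle, where miR-1 favors differentiation of muscle precursors and miR-133 their proliferation. miR-206 and miR-133b form a similar pair that is largely restricted to skeletal muscle. miR-486 lies within the gene of ankyrin 1, is enriched in muscle and is also among the most abundant miRNAs of red blood cells and of serum. None of these miRNAs is regarded as a marker of colon epithelium. All of them are highly conserved among mammals, and the values are assigned to mouse names by sequence, so a mouse and a bovine copy of the same sequence would be counted alike.

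Of the 6 members, 2 had a mature sequence in the RefSeq table of GRCm38.p6. They are shown because their seeds, bases 2 to 8, set which transcripts these families recognize. Capitals mark the seed, and the sequences read 5′ to 3′.
mmu-miR-206-3p: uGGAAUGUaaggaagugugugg
mmu-miR-133b-3p: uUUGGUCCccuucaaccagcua
The seeds differ, GGAAUGU in miR-206-3p and UUGGUCC in miR-133b-3p. Among the 1623 miRNAs of the files with a sequence in that table, which include only these 2 members, the seed of miR-206-3p was shared by miR-6349 and miR-6382. Both had 0 reads in either library. The seed of miR-133b-3p was found in no other of these 1623 miRNAs. miR-133a-3p, miR-1a-3p, miR-486a-5p and miR-486b-5p had no sequence in that table, so whether they share either seed was not examined.

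miR-206-3p lies at chr1:20679055-20679076 and miR-133b-3p at chr1:20682834-20682855, both on the plus strand of GRCm38. Their precursors Mir206 (ENSMUSG00000065559.1, from 20679010 to 20679082) and Mir133b (ENSMUSG00000065480.1, from 20682769 to 20682887) have 3686 bases between them, and both overlap exons of the long noncoding RNA gene Gm28653. For miR-1a-3p and miR-133a-3p, the precursors Mir1a-1 (ENSMUSG00000070144.1, from 180389048 to 180389124) and Mir133a-2 (ENSMUSG00000065460.1, from 180398379 to 180398482) lie on the plus strand of chromosome 2, with 9254 bases between them and no overlapping gene. Each of these miRNAs is listed at 2 precursors in the files. The other precursors, Mir1a-2 and Mir133a-1, lie on the minus strand of chromosome 18. They lie in introns of the antisense gene Mir133a-1hg on the same strand and of Mib1 on the opposite strand, and Mir1a-2 also overlaps Mir1b. The precursor of miR-486a-5p, Mir486 (ENSMUSG00000070084.3), spans 23142555 to 23142682 on the plus strand of chromosome 8. That of miR-486b-5p, which GENCODE calls Mir3107, spans 23142573 to 23142662 on the minus strand of the same stretch. Both lie in an intron of Ank1, the gene of ankyrin 1.

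The libraries differed in depth. With the highest entry taken for each miRNA, parental exosomes had 32162 miRNA reads and SDCSC exosomes 3964, a ratio of 8.11. A limit of 3 reads, set as the least that a library can show, corresponds to 0.00933% of the parental and 0.0757% of the SDCSC miRNA reads. The colon markers were sparse. Among 8 intestinal epithelial miRNAs, all 5 of the miR-200 family (miR-200a-3p, miR-200b-3p, miR-200c-3p, miR-141-3p and miR-429-3p) had 0 reads in parental exosomes, and miR-200b-3p and miR-429-3p had 1 read each in SDCSC exosomes. Of the rest, miR-192-5p had 48 and 0 reads, miR-194-5p 5 and 0, and miR-215-5p 2 and 0. Epithelial markers were thus near 0 in both libraries, apart from miR-192-5p in the parental one.

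In parental exosomes 5 of the 6 members were detected, and in SDCSC exosomes none was. Absence from the shallower library was the usual case, since 328 miRNAs had a parental read, 124 had an SDCSC read, and 212 of the 328 (64.6%) had 0 SDCSC reads. The member with the most reads was mmu-miR-486a-5p, with 856 reads (23378.4 RPM as deposited) for parental exosomes and none for SDCSC exosomes (0 RPM). It took 2.66% of parental miRNA reads (95% Wilson interval 2.49 to 2.84%) and ranked as number 10 among all miRNAs of that library. For scale, miR-99b-5p, the most abundant there, had 3927 reads or 12.2%. At the parental share, 106 reads of miR-486a-5p would fall in a library of the SDCSC depth. With the SDCSC count set at the limit of 3 reads, its share was 35.2-fold lower in SDCSC exosomes. That fold depends on this limit, and the Wilson interval of 0 SDCSC reads reaches higher, up to 0.0968% against 0.0757%. The same holds for the other folds given below for 0 SDCSC reads.

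Values of mmu-miR-486b-5p were nearly the same. The parental library held 853 reads of it, 3 fewer than of miR-486a-5p, and the SDCSC library 0. Its parental share was 2.65% (2.48 to 2.83%), and with the SDCSC count set at 3 reads its share was 35.0-fold lower in SDCSC exosomes. Both precursors occupy one stretch, on its 2 strands, and their products are near-identical, so the same reads may stand behind both values and they are uncertain as separate miRNAs. For its account of exosomal RNA the study normalized for reads that several features share, but it does not state this for the miRNA values used here. In the parental library, 18 of 29 names listed at several precursors and detected there had the same value at every entry. Counted once, miR-486 was the largest of the muscle-associated miRNAs by a factor of 7.13 over miR-133a-3p (exact 95% interval 5.89 to 8.71, counting error only), or of 3.57 with both entries of miR-133a-3p summed to 240 reads.

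The next was mmu-miR-133a-3p, a miRNA of cardiac and skeletal muscle, for which 120 reads (3277.35 RPM) were counted in the parental library against 0 in the other. That was 0.373% of parental miRNA reads (0.312 to 0.446%), rank 42. At the same share 14.8 reads would fall in a library of the SDCSC depth. With the SDCSC count set at 3 reads, its share was 4.93-fold lower in SDCSC exosomes. Both of its entries held 120 reads, and with sums of entries the fold at this limit was 10.0.

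The remaining members were at or near the limit. For mmu-miR-133b-3p the parental library gave 7 reads and the SDCSC library 0, and for mmu-miR-1a-3p 5 and 0. Their parental shares were 0.0218% (0.0105 to 0.0449%) and 0.0155% (0.00664 to 0.0364%), which would give 0.863 and 0.616 reads at the SDCSC depth. A fall was therefore not detectable at this depth for either. mmu-miR-206-3p had 0 reads in both libraries, for which the Wilson interval reaches up to 0.0119% in parental and 0.0968% in SDCSC exosomes. With miR-206-3p at 0, a read in the skeletal muscle pair came from miR-133b-3p alone.

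**Figure D1:**
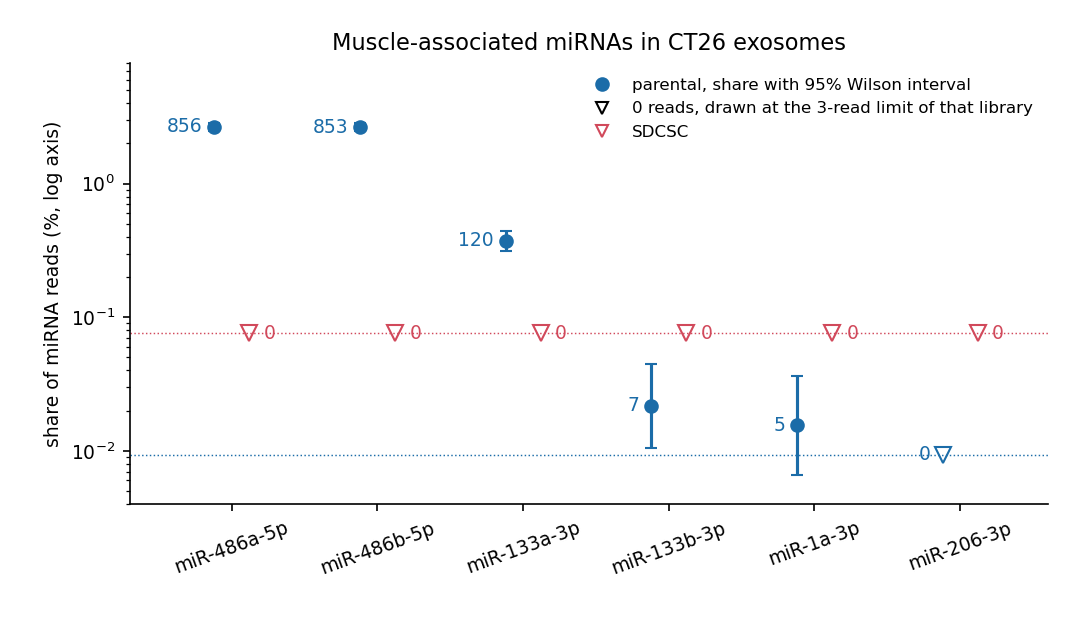
Share of miRNA reads (percent, log axis) of each muscle-associated miRNA in parental (blue) and SDCSC (red) exosomes, 1 library each. Circles are shares with 95% Wilson intervals, open triangles mark 0 reads and are drawn at the 3-read limit of the library (dotted lines), and numbers beside the points are reads. miR-486a-5p, miR-486b-5p and miR-133a-3p lie above the SDCSC limit of 0.0757% in parental exosomes, and miR-133b-3p and miR-1a-3p lie below it.

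Within parental exosomes the members were far from equal. miR-133a-3p had 17.1 times the reads of miR-133b-3p (exact 95% interval 8.07 to 43.6), or 34.3 times with sums of entries. These miRNAs are near-identical in sequence, so the split between them depends on how such reads were assigned. miR-133a-3p also had 24.0 times the reads of miR-1a-3p (10.0 to 75.3), although they are encoded side by side. miR-133b-3p and miR-1a-3p could not be told apart at 7 and 5 reads, a ratio of 1.40 (0.382 to 5.59) that turned to 0.70 with sums of entries. The order in parental exosomes was thus miR-486, miR-133a-3p, then miR-133b-3p and miR-1a-3p without a difference beyond counting error, then miR-206-3p. To set this beside other neighbors, precursors on one strand at most 10 kb apart were paired by the RefSeq table. In 22 such pairs with a read for each and at least 100 reads for the larger, the median ratio was 7.28 (range 1.14 to 1743). In 5 of the 22 the ratio was at least as large as that between miR-133a-3p and miR-1a-3p. That pair is not among the 22, because neither miRNA has a sequence in that table. A miRNA made at several precursors was counted in full at each, so such a ratio does not compare the products of neighbors alone.

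The other arms of these hairpins, and their close relatives, gave no read. Each hairpin yields a 5p and a 3p strand, of which usually one is kept. All 10 miRNAs of this list (miR-486a-3p, miR-486b-3p, miR-133a-5p, miR-133b-5p, miR-133c, miR-1a-1-5p, miR-1a-2-5p, miR-1b-3p, miR-1b-5p and miR-206-5p) had 0 reads in both libraries. The limit of 3 reads is 0.350% of the larger arm beside 856 reads of miR-486a-5p, and 2.50% beside 120 reads of miR-133a-3p. An absent smaller arm was not peculiar to them. Arms were paired only where their names differ in 5p and 3p alone. This leaves out hairpins with a numbered arm, such as miR-92a and let-7f, some of which had parental reads of the smaller arm. Among 30 other pairs so formed, with at least 100 parental reads of the larger, the smaller was at 0 in 8 (26.7%). Examples are miR-22 with 2253 reads, miR-191 with 1277 and miR-143 with 888. Over these 30 pairs the smaller arm took a median of 1.45% of the reads of both.

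**Figure D2:**
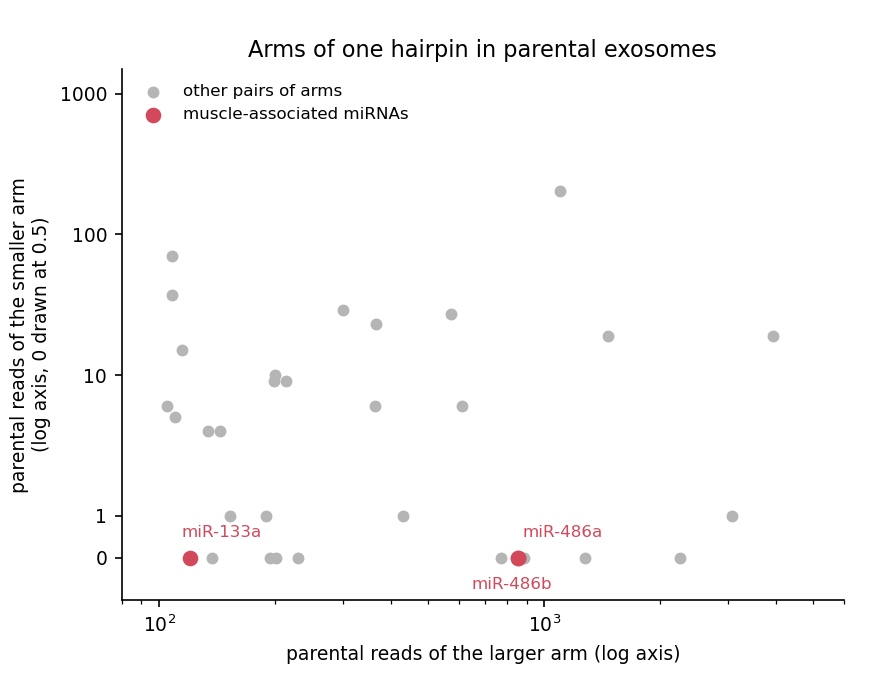
Parental reads of the smaller arm against those of the larger arm (both log axes, 0 drawn at 0.5). Shown are 33 pairs of arms whose names differ in 5p and 3p alone, with at least 100 reads of the larger. The 3 muscle-associated pairs (red, miR-486a and miR-486b overlapping) lie at 0 on the vertical axis, as do 8 of the 30 other pairs (grey).

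The remaining miRNAs of striated muscle were not found beyond a single read. miR-208a, miR-208b and miR-499 come from introns of myosin heavy chain genes. Of their 6 mature forms, miR-499-5p had 1 parental read, below the limit of 3, and 0 SDCSC reads. The other 5 had 0 reads in both. The 3 strands that muscle mainly keeps are shown with their seeds in capitals, since they share the first bases of the seed.
mmu-miR-499-5p: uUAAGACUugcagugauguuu
mmu-miR-208a-3p: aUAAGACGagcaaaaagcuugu
mmu-miR-208b-3p: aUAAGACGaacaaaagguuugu
Of the striated muscle miRNAs that were looked for, parental exosomes thus held miR-133a-3p and miR-486 well above the limit, miR-133b-3p and miR-1a-3p just above it, and the rest at 0 or 1 read.

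miR-486 is shared between muscle and red blood cells, so blood cell miRNAs were read beside it. Of 5 red blood cell miRNAs, 1 had a share at least 1.5-fold lower in SDCSC exosomes with counts under 3 reads set to 3. Only 2 of the 5 had enough parental reads, at least 37, for such a fall to be shown. By this measure 44 of the 217 miRNAs with at least 3 reads in either library (20.3%) were lower. Of the 73 miRNAs with at least 37 parental reads, the same 44 make 60.3%. The red blood cell miRNA that was lower was miR-451a, with 88 parental and 0 SDCSC reads. It took 0.274% of parental miRNA reads (0.222 to 0.337%), and its SDCSC share was 3.62-fold lower with the count set to 3. miR-144-3p and miR-144-5p, encoded beside miR-451a, had 3 and 0 reads each, and miR-363-3p had 1 and 0. miR-16-5p, which most cell types express, had 502 and 52 reads, a parental to SDCSC ratio of shares of 1.19 (exact 95% interval 0.893 to 1.62). The list of 5 together took 1.86% of parental and 1.31% of SDCSC miRNA reads. These were mostly miR-16-5p in parental exosomes and all miR-16-5p in SDCSC exosomes. The sequences of miR-451a and miR-144-3p are shown, with the seed in capitals, because these miRNAs define red blood cells within this list.
mmu-miR-451a: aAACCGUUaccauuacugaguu
mmu-miR-144-3p: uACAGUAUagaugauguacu

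Of 5 white blood cell miRNAs, 1 was lower by the same measure, and it alone had enough parental reads for such a fall to be shown. miR-142a-5p, made in blood cells of most lineages, was counted with 213 parental reads and 1 SDCSC read, a parental to SDCSC ratio of shares of 26.3 (exact 95% interval 4.66 to 1042), or 8.75 with the SDCSC count set to 3. miR-142a-3p had 9 and 0 reads, miR-223-3p of myeloid cells 12 and 0, miR-150-5p of lymphocytes 5 and 0, and miR-155-5p of activated immune cells 23 and 2. Together the 5 took 0.815% of parental miRNA reads (0.722 to 0.919%) and 0.0757% of SDCSC miRNA reads (0.0257 to 0.222%). miR-122-5p, the liver miRNA that is plentiful in serum, had 0 reads in both libraries. The part of blood cells or serum in the levels of miR-486 and miR-133a-3p was not tested.

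**Figure D3:**
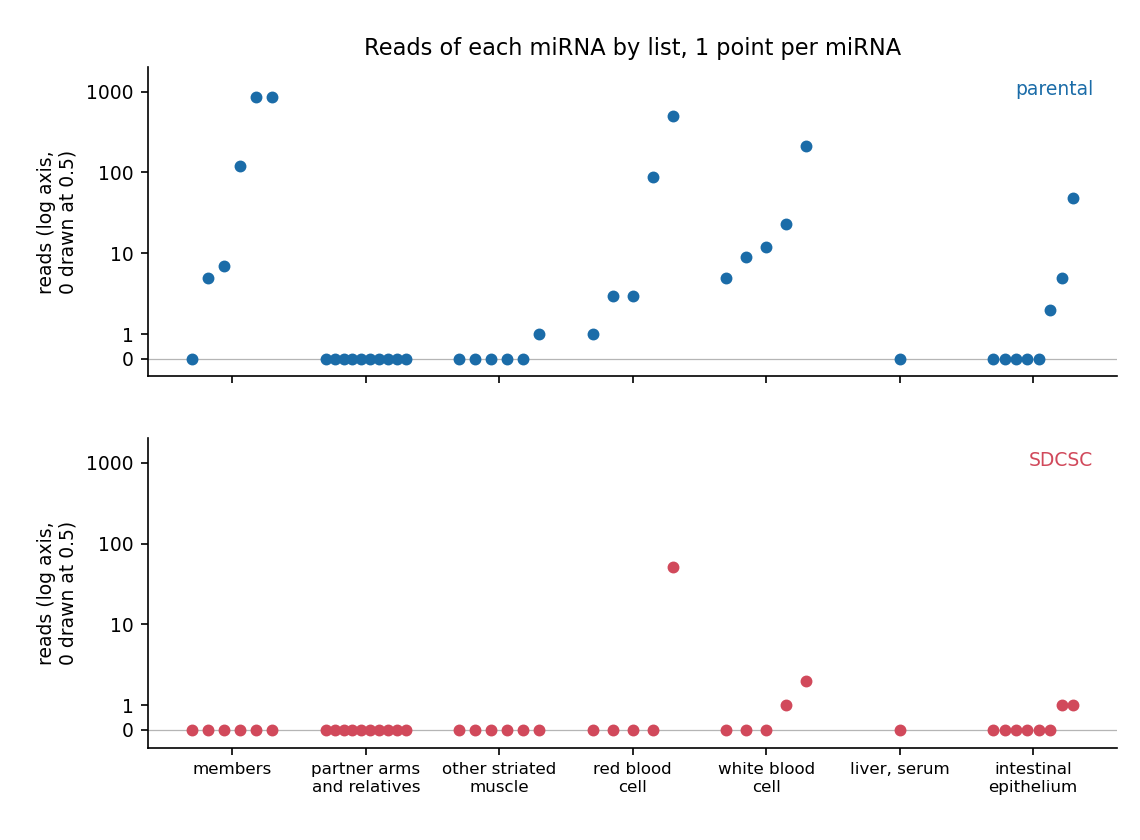
Reads of each miRNA (log axis, 0 drawn at 0.5) in parental (upper panel) and SDCSC (lower panel) exosomes, 1 point per miRNA, by list. In SDCSC exosomes all 6 members are at 0, and the highest point over all lists is miR-16-5p at 52 reads. The axes are in reads and the parental library holds 8.11 times as many.

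To set the members against all miRNAs, a miRNA was called lower when its parental share was at least 1.5-fold its SDCSC share, with any SDCSC count under 3 reads set to 3, as for the blood cell miRNAs. At this depth a fall can be called only from 37 parental reads up. No member lies between 7 and 120 reads, so none is close to this bound. The call was made for 3 of the 6 members, namely miR-486a-5p, miR-486b-5p and miR-133a-3p, and for none was a rise called. Over the 217 miRNAs with at least 3 reads in either library, 44 or 20.3% were called lower. Over the 73 with at least 37 parental reads, the same 44 make 60.3%, a share that is raised by choosing on parental reads. Lower calls were therefore common among miRNAs with at least 37 parental reads, and since the 3 were chosen on this contrast, nothing is read from their count. A count of 0 in the SDCSC library was found for 13 of the 73 or 17.8%, the 3 members included. The 73 start at 37 parental reads and the 3 members at 120, so this is not a share for miRNAs of their abundance.

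The miRNAs with the most parental reads among those absent from SDCSC exosomes had the pattern most like that of the members. Over 2 libraries, likeness means only 0 SDCSC reads and a high parental count. Of the first 10, 3 were members. miR-486a-5p and miR-486b-5p stood at the top with 856 and 853 reads, followed by miR-5106 with 208, miR-133a-3p with 120 and miR-451a with 88. After these came miR-351-5p with 83 reads, let-7d-3p with 70, miR-24-3p with 51, miR-192-5p with 48 and miR-378c with 45. The gap between miR-486 and the next of these miRNAs was the widest among the 10, from 853 to 208 reads. miRNAs above 0 but under the limit of 3 SDCSC reads were left out of this list. Among them were miR-142a-5p with 213 parental reads and 1 SDCSC read, miR-25-3p with 199 and 1, miR-378a-3p with 189 and 1, and miR-93-5p with 134 and 1. These had more parental reads than miR-133a-3p. In contrast, miR-21a-5p, the most abundant miRNA of SDCSC exosomes, had 1468 parental and 865 SDCSC reads, a share 4.78-fold higher in SDCSC exosomes (exact 95% interval 4.39 to 5.20).

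**Figure D4:**
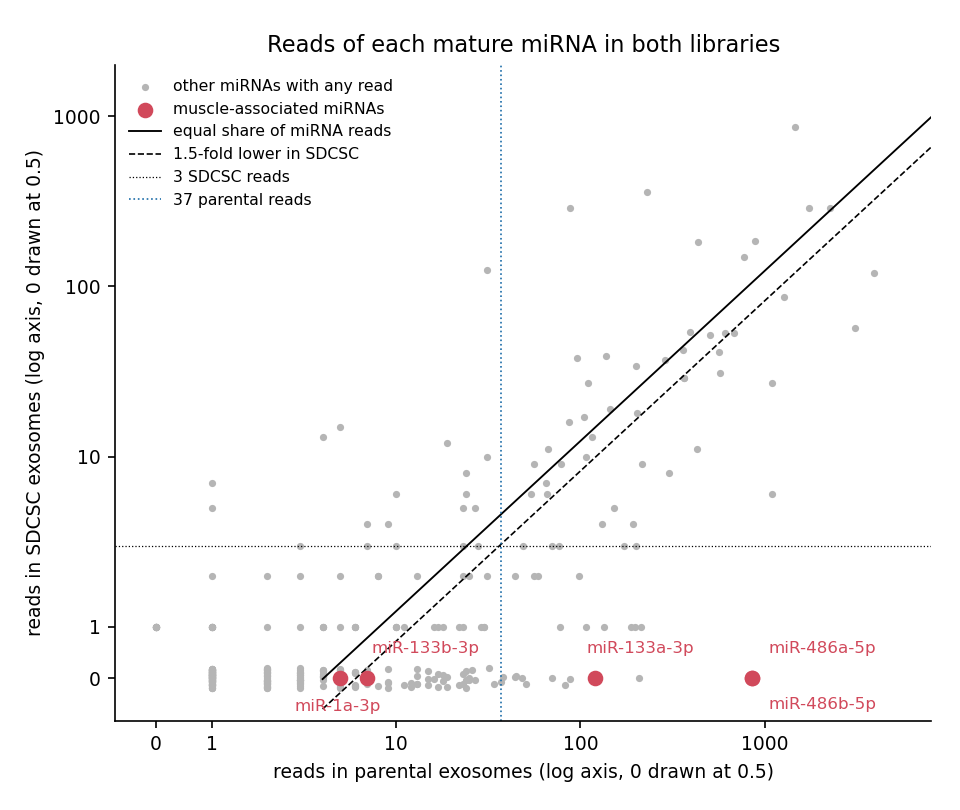
Reads of the 336 miRNAs with any read in parental (horizontal) and SDCSC (vertical) exosomes (log axes, 0 drawn at 0.5, points at 0 SDCSC reads spread slightly for visibility). The solid line marks equal shares, the dashed line a 1.5-fold lower SDCSC share, the horizontal dotted line 3 SDCSC reads and the vertical one 37 parental reads. The 5 muscle-associated miRNAs with a read (red, miR-486a-5p and miR-486b-5p overlapping) lie at 0 SDCSC reads, 3 of them right of the vertical line.

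The 6 members summed to 1841 parental reads, a share of 5.72% (95% Wilson interval 5.48 to 5.98%). They summed to 0 SDCSC reads, for which the Wilson interval reaches up to 0.0968%. With miR-486 counted once, the parental share was 3.07% (2.89 to 3.27%). Without miR-486 it was 0.410% (0.346 to 0.486%), or 132 reads, of which 120 were miR-133a-3p. The summed share thus rested mainly on miR-486, which is not restricted to muscle.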

How the data were processed

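Small RNA of CT26 exosomes was sequenced in 1 parental and 1 SDCSC library, from fragments of 18 to 40 nucleotides. The authors clipped the adapter, discarded reads under 18 nucleotides with Trimmomatic and deposited an RPM value for each miRNA entry, scaled to all reads assigned to miRNAs. The submitters' processing notes name mm10. For the content of exosomal RNA the study used the ncPRO-seq framework (RepeatMasker and Rfam features), normalizing for reads that several features share. Whether the miRNA values were made in that way, and from which miRBase release, is not given in the sources used here. One read equals 27.31 RPM for the parental and 217.77 RPM for the SDCSC library, and 100.0% of values above 0 were whole multiples within 0.1 reads, so reads were recovered, 36615 and 4592 over all 2061 entries. The highest entry of each miRNA was used (32162 and 3964 reads).

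Shares have Wilson intervals and ratios exact conditional intervals, at 95%. Both, and the 3-read floor, reflect the counting of reads alone, because PCR copies of a molecule were not told apart. The members and lists were chosen with earlier results of these data known. Named were the members, all miRNAs of the lists, the 10 with the most parental reads at 0 SDCSC reads, and the most abundant of each library. As a count test of the recovered reads, Fisher's exact test (two-sided, Benjamini-Hochberg adjusted over 336 miRNAs) gave 48 with an adjusted p under 0.05, of which 31 were lower and 16 higher by 1.5-fold. It compares these libraries, not the conditions, and was not used for the members.

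Scripts were tested on simulated data. Precursors are from GENCODE M21 (GRCm38), and miR-486b was matched to Mir3107 through RefSeq synonyms. Versions were Python 3.11.15, numpy 2.4.6, pandas 2.3.3, scipy 1.17.1, matplotlib 3.10.9, R 4.3.3 and edgeR 4.0.16, the last for TMM factors only.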

Additional observations from a re-analysis of the deposited data

How the results depend on the processing

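No paired analysis was possible because 1 library stands for each cell state, and for the same reason none could be left out. The count of members called lower, 3, was 2 with miR-486 counted once and 4 with 0.5 reads added to both libraries. Without scaling it was 5, because miR-133b-3p and miR-1a-3p joined, and under every other alternative it was 3. The setting without scaling ignores the depths. The summed parental share of the members, 5.72%, was 5.37% with sums of entries, 5.03% over the total of all entries and 3.07% with miR-486 counted once. The share of miRNAs called lower, 20.3%, was 81.1% without scaling, 15.2% at 2-fold, 9.22% at 4-fold, 33.6% with at least 10 reads in either library, 13.1% with any read and 9.23% of the 336 miRNAs with any read when Fisher's exact test was also required. The fold of miR-486a-5p with the SDCSC count at the floor, 35.2, ranged from 21.1 with a floor of 5 reads to 285 without scaling. That of miR-133a-3p, 4.93, ranged from 2.96 to 40.0 under these. It was 10.0 with sums of entries, because both of its entries hold the same value. TMM and the median of ratios moved every log2 ratio by -0.06 and totals without the most abundant miRNA by 0.17. With sums of entries, the number of miRNAs called lower in each of the lists was as reported. The 3964 SDCSC reads limit all statements on miR-133b-3p, miR-1a-3p and miR-206-3p.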
